A study of Mus musculus with 2 samples.

Results

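The genes of transforming growth factor-beta (TGF-beta) signaling were examined in cultured mouse cavernous endothelial cells (MCECs), as the ligand genes Tgfb1, Tgfb2 and Tgfb3, the receptor genes Tgfbr1, Tgfbr2 and Tgfbr3, the inhibitory Smad gene Smad7, the activin subunit gene Inhba and the target gene Tgfbi. These 9 genes were taken by symbol, out of 23183 symbols listed in the files, with earlier results of these data known. MCECs were primary cells grown out of penis tissue of C57BL/6J mice, and both cultures were kept in high glucose (HG, 30 mM). HG+HBS received HEPES-buffered saline as the vehicle, and HG+PC-NVs received nanovesicles made by extruding cultured cavernous pericytes, at 1 µg/mL. RNA was isolated 72 hours after the start of high glucose and 24 hours after PC-NVs were added, whereas the labels give 5 days of glucose. There was 1 RNA-sequencing library per condition, of roughly 13300000 fragments in HG+HBS and 11600000 in the other as estimated from the low values. Therefore no difference could be set against the spread between cultures, no p-value was computed, and each interval below is a 95% interval for counting error only.

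TGF-beta ligands are secreted in a latent form, held by their own propeptide and by latent TGF-beta binding proteins, and must be released before they act. The free ligand joins the type II receptor Tgfbr2 to the type I receptor Tgfbr1 (ALK5), whose kinase phosphorylates Smad2 and Smad3. These enter the nucleus with Smad4 and change transcription, and Smad7, itself a target, blocks the type I receptor and closes a feedback loop. In vessels the pathway is known for its part in endothelial quiescence, in the recruitment of mural cells and in matrix deposition.

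Levels are given as normalized FPKM, fragments per kilobase of transcript scaled to the size of the library, converted from the deposited log2 values and summed over the rows of a symbol. Log2 ratios are HG+PC-NVs over HG+HBS on the log2(FPKM + 1) scale, and folds with their intervals are plain FPKM ratios. A gene was counted as higher or lower when its log2 ratio passed 1.5-fold. Of the 11785 genes with a mean log2 level of at least 1, 5.33% were higher and 3.57% lower in HG+PC-NVs by this rule, with a median log2 ratio of -0.01.

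The markers of the labelled cell type were low in both libraries. Of 12 endothelial markers, 7 were under 1 FPKM in both, and Pecam1 (CD31) had 1.05 FPKM with HBS and 0.938 FPKM with PC-NVs. Kdr, the main VEGF receptor, had 0.518 and 0.438 FPKM, and Cdh5 (VE-cadherin) had 5.05 and 5.73 FPKM. The summed level of the list was 36.4 FPKM with HBS and 29.4 FPKM with PC-NVs. In contrast, the 8 fibroblast and mesenchymal markers summed to 1917 and 2270 FPKM, with Thy1 (CD90) at 549 and 412 FPKM and Pdgfra at 149 and 129 FPKM. That sum was larger with PC-NVs through Dcn, at 623 and 1283 FPKM. Of the 8 markers, 6 had log2 ratios of HG+PC-NVs over HG+HBS below 0, and the list median was -0.21. The TGF-beta values below are therefore those of cultures with this mixture of markers. In such bulk RNA, fewer cells of a type and less RNA per cell cannot be told apart.

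**Figure D1:**
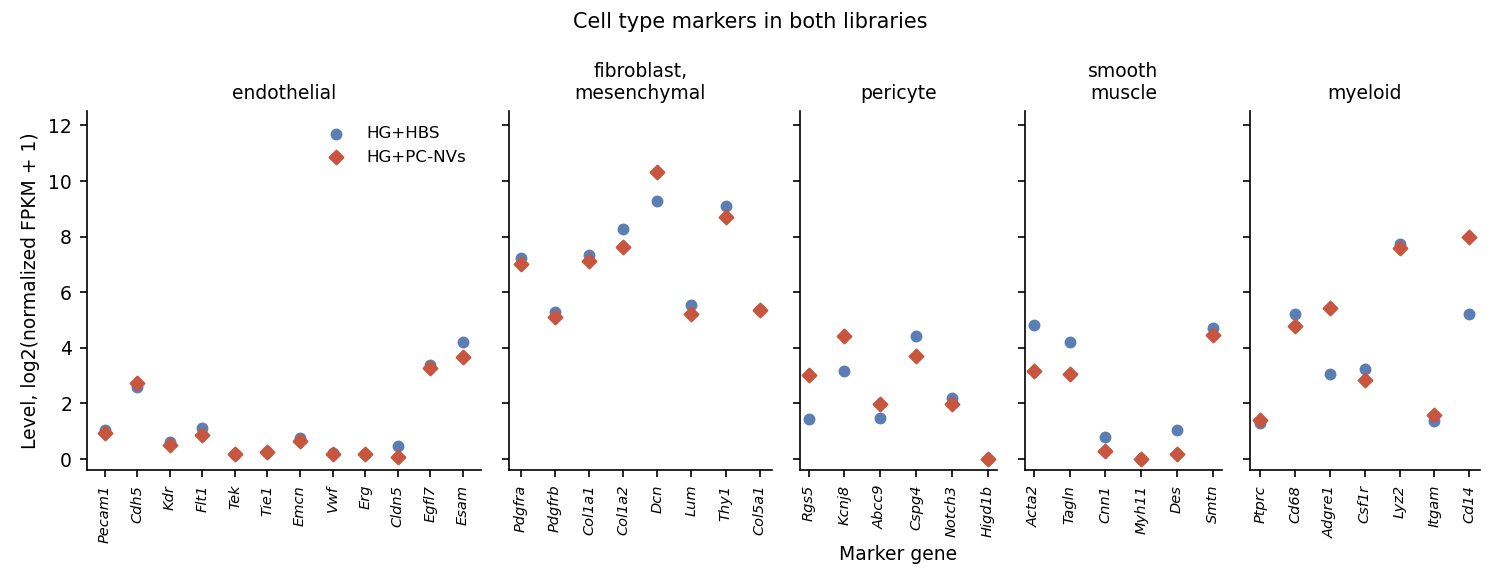
Level of each cell type marker as log2(normalized FPKM + 1), with HG+HBS as circles and HG+PC-NVs as diamonds, 1 library each; a diamond can hide a circle at the same level. The endothelial markers lie near the bottom, with Esam the highest at 17.4 FPKM in HG+HBS, while all 8 fibroblast and mesenchymal markers lie above them.

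All 9 TGF-beta genes were expressed in both libraries, and all 9 passed the filter on low values. In HG+HBS their order by level was Tgfbr3, Tgfb1, Tgfbr2, Tgfb3, Tgfbr1, Inhba, Tgfbi, Smad7 and Tgfb2, from 102 FPKM down to 7.23 FPKM. In HG+PC-NVs, Inhba moved from place 6 to place 4 and Tgfb3 from place 4 to place 6, while the other 7 kept their places. With 1 library per condition, whether neighbours in this order differ beyond the spread between cultures could not be determined.

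**Figure D2:**
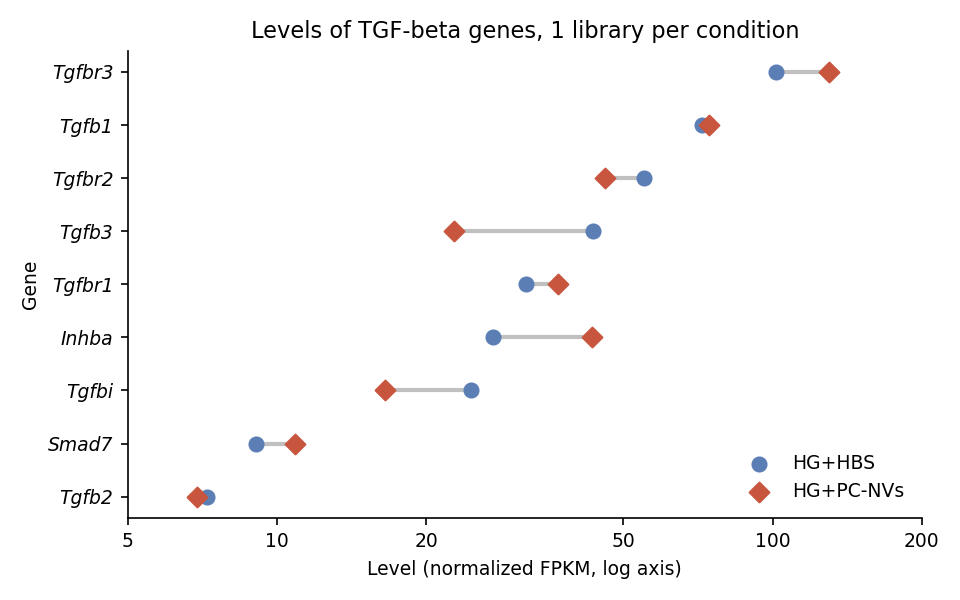
Level of the 9 TGF-beta genes in normalized FPKM on a log axis, with HG+HBS as circles, HG+PC-NVs as diamonds and a grey line joining the 2 libraries of a gene. Tgfb3 shows the widest gap, from 43.4 to 22.7 FPKM, and Inhba the widest gap in the other direction, from 27.3 to 43.2 FPKM.

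Among the ligands, Tgfb3 was lower with PC-NVs while the difference of Tgfb1 and of Tgfb2 was within counting error. Tgfb3 (chromosome 12, 86056745 to 86079041, reverse strand) had 43.4 FPKM with HBS and 22.7 FPKM with PC-NVs. This was 1.91-fold lower, a log2 ratio of -0.90, and the FPKM ratio was 0.524 with a counting interval of 0.484 to 0.567, from about 1958 and 896 fragments. The ratio lay at percentile 1.09 of the 11785 genes. Tgfb1 (chromosome 7, 25687002 to 25705077, forward strand), the ligand gene with the highest level, had 72.1 FPKM with HBS and 74.4 FPKM with PC-NVs. The interval of its FPKM ratio, 0.969 to 1.10, held 1. Tgfb2 (chromosome 1, 186622792 to 186705989, reverse strand) had the lowest level of the 9 genes, 7.23 and 6.88 FPKM, and its interval of 0.833 to 1.09 also held 1.

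The makeup of the ligand transcripts thus differed between the libraries. The 3 ligands summed to 123 FPKM with HBS and 104 FPKM with PC-NVs. Tgfb1 made up 58.7% of that sum with HBS and 71.5% with PC-NVs, and Tgfb3 made up 35.4% and 21.9%. Tgfb2 stayed a minor part, at 5.89% and 6.61%. The level of Tgfb1 was 1.66 times that of Tgfb3 with HBS and 3.27 times with PC-NVs. These shares concern transcripts, and the proteins or their release from the latent form were not analysed here.

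**Figure D3:**
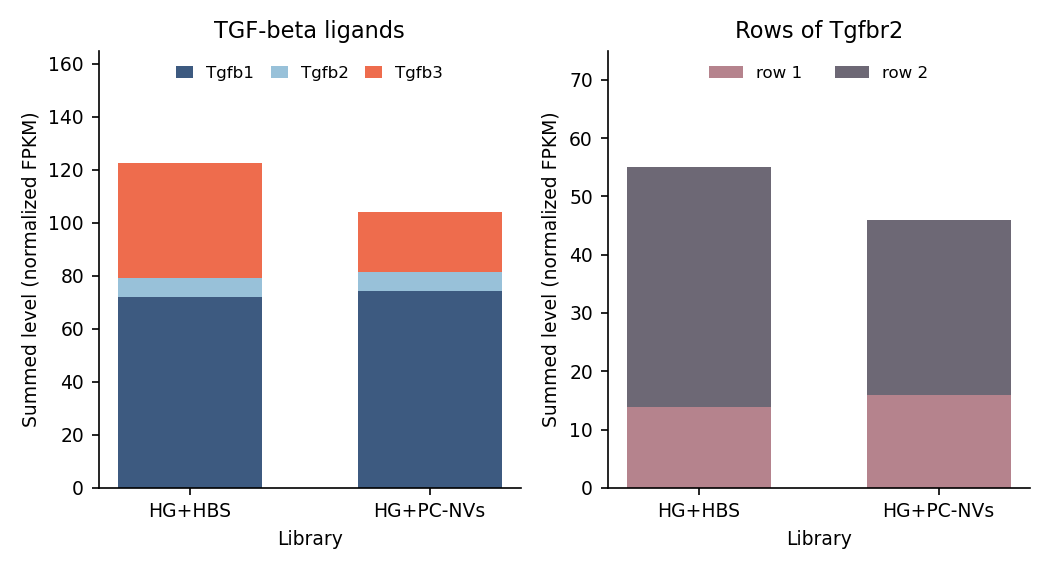
Stacked levels in normalized FPKM for each library, of the ligand genes Tgfb1, Tgfb2 and Tgfb3 (left) and of the 2 rows deposited under Tgfbr2 (right), without error bars because there is 1 library per condition. On the left the Tgfb3 part is smaller in HG+PC-NVs, and on the right row 2 is smaller while row 1 is slightly larger.

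The promoters of Tgfb1 and Tgfb2, whose intervals held 1, and of Inhba and Tgfbi, which lay on opposite sides, are shown here to let the sequences upstream of these genes be compared. Each is the 250 bases before a RefSeq start on GRCm38.p6, written 5′ to 3′ on the strand of the gene, and 6 of the 9 genes matched an entry. Capitals mark matches on either strand to GGGCGG (the GC box), TATAAA (the TATA box) or CAGAC (the core of the CAGA box, to which Smad3 and Smad4 bind). The windows were also searched for TGANTCA (the AP-1 site) and TGACGTCA (the cAMP response element), and no match overlapped another. The windows were chr7:25686752-25687001 (forward) for Tgfb1, chr1:186705990-186706239 (reverse) for Tgfb2, chr13:16011601-16011850 (forward) for Inhba and chr13:56609336-56609585 (forward) for Tgfbi. The end of the Tgfbi window lies past 56609523, the start of the gene in GENCODE M21, because its RefSeq start lies further in.
Tgfb1: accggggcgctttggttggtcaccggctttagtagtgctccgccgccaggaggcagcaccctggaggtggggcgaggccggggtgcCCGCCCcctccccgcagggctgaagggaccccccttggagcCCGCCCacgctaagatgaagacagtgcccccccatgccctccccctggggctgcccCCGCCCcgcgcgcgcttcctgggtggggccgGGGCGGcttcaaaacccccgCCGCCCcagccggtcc
Tgfb2: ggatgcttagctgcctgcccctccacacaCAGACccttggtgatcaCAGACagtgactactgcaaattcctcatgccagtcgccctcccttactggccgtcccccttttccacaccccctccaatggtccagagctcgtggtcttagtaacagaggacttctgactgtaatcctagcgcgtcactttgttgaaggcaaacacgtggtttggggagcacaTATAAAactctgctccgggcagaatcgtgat
Inhba: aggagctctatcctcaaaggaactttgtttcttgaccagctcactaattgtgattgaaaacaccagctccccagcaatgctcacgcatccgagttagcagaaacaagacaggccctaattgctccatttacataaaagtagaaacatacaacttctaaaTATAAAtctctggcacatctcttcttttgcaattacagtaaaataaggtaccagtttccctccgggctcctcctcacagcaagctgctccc
Tgfbi: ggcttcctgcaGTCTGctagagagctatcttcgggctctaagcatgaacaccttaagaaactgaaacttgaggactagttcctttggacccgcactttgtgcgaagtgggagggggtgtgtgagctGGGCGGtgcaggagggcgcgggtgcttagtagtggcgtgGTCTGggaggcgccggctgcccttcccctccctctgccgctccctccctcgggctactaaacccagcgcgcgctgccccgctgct

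The Tgfb1 window was 75.2% G and C and held 5 GC boxes and no TATA box. The Tgfb2 window held a TATA box 31 to 26 bases before the start and 2 CAGA cores. The Inhba window, at 43.2% G and C, held a single match, a TATA box 91 to 86 bases before the start. The Tgfbi window held 2 CAGA cores and 1 GC box. Among all 32851 RefSeq promoters, 32.7% held a GC box, 12.4% a TATA box and 42.2% a CAGA core, against 6.75% with an AP-1 site and 1.55% with a cAMP response element, and neither of the last pair was found in the windows shown. These matches describe letters only, and nothing was measured at these promoters.

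The receptor genes were all well expressed, and none passed 1.5-fold. Tgfbr3, which encodes betaglycan, the co-receptor that presents ligand and in particular TGF-beta2 to the signaling receptors, had the highest level of the 9 genes. It lies on chromosome 5 (107106570 to 107289629, reverse strand) and had 102 FPKM with HBS and 130.1 FPKM with PC-NVs, which ranked it 752 and 605 among all symbols. Its FPKM ratio was 1.28 with an interval of 1.24 to 1.32, a difference wider than counting error but inside the 1.5-fold limit. Tgfbr1 (chromosome 4, 47353222 to 47414931, forward strand) had 31.8 and 37.0 FPKM, an FPKM ratio of 1.16 with an interval of 1.10 to 1.23.

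Tgfbr2 went the other way as a sum, but its rows did not go together. The gene (chromosome 9, 116084293 to 116175360, reverse strand) had 55.0 FPKM with HBS and 45.9 FPKM with PC-NVs, an FPKM ratio of 0.834 with an interval of 0.802 to 0.868. It is the only one of the 9 genes with 2 rows in the files, and GENCODE M21 annotates 2 protein-coding transcripts for it. Row 1, in the order of the files, had 13.9 and 15.9 FPKM, a log2 ratio of 0.18. Row 2 had 41.2 and 30.1 FPKM, a log2 ratio of -0.44. Row 2 held 74.8% of the level with HBS and 65.5% with PC-NVs. The files do not say whether the rows are these transcripts, or how fragments were divided between the rows. With its rows summed, the transcript level of Tgfbr2 was 1.73 times that of Tgfbr1 with HBS and 1.24 times with PC-NVs. Row 2 alone lay above Tgfbr1 with HBS, at 41.2 against 31.8 FPKM. With PC-NVs it lay below, at 30.1 against 37.0 FPKM, so the comparison depends on how the rows are taken.

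Smad7 (chromosome 18, 75367529 to 75395935, forward strand) had 9.07 FPKM with HBS and 10.9 FPKM with PC-NVs. Its log2 ratio was 0.24, and its FPKM ratio was 1.20 with an interval of 1.06 to 1.36. The feedback gene was therefore slightly higher by more than counting error and within the 1.5-fold limit. Relative to Smad3, the Smad it opposes, its level was 0.165 with HBS and 0.187 with PC-NVs.

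Inhba, which encodes the beta A subunit of activin A, was the one gene of the 9 that was higher past 1.5-fold. Activins signal through their own receptors to the same Smad2 and Smad3. Inhba (chromosome 13, 16011851 to 16031621, forward strand) had 27.3 FPKM with HBS and 43.2 FPKM with PC-NVs. The log2 ratio was 0.64, and the FPKM ratio was 1.58 with an interval of 1.499 to 1.67, from about 2324 and 3210 fragments. The lower bound of the interval lay at the limit itself.

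Tgfbi (chromosome 13, 56609523 to 56639562, forward strand) encodes a secreted matrix protein that takes its name from its induction by TGF-beta. It had 24.6 FPKM with HBS and 16.5 FPKM with PC-NVs. The log2 ratio of -0.55 was just inside the limit of 0.58 in size, and the FPKM ratio was 0.672 with an interval of 0.603 to 0.750. Its side of the limit is thus not settled by counting, while its lower level in HG+PC-NVs is wider than counting error.

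**Figure D4:**
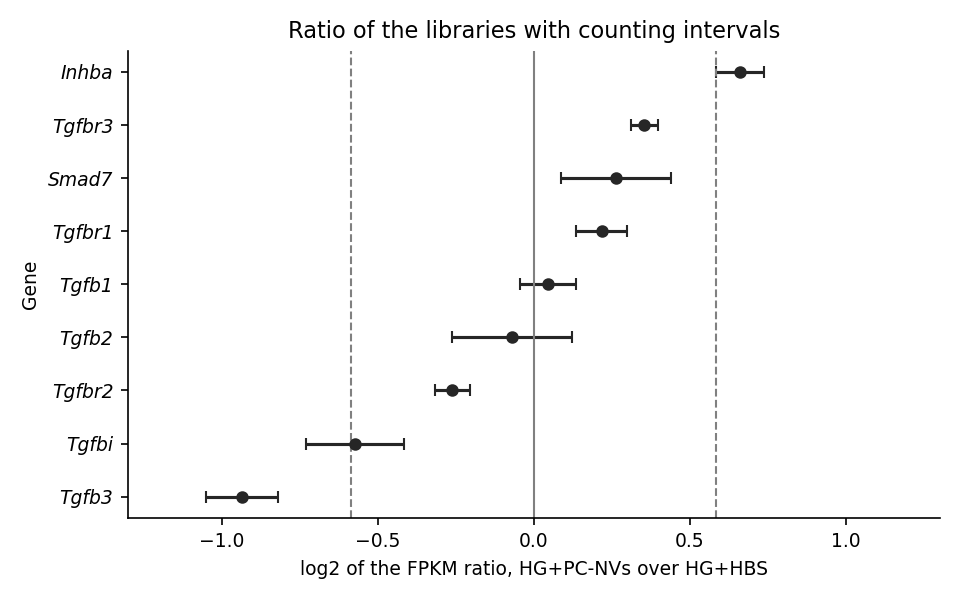
Log2 of the plain FPKM ratio, HG+PC-NVs over HG+HBS, for the 9 TGF-beta genes, with bars for the 95% interval that covers counting error only and dashed lines at 1.5-fold. Tgfb3 lies wholly beyond the lower line, Inhba and Tgfbi have bars that reach a line, and the bars of Tgfb1 and Tgfb2 hold 0.

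In all, 1 of the 9 genes was higher (11.1%, against 5.33% of all genes) and 1 was lower (11.1%, against 3.57%), and 7 passed in neither direction. Their median log2 ratio was 0.05, against -0.01 for all genes, with 5 of 9 above 0. With a limit of 2-fold, 0 of the 9 were higher and 0 lower, against 2.38% and 0.798% of all genes. With so few genes, 1 gene in each direction is not read as a departure from the other genes. Exons of 3 of the 9 genes, Tgfb2, Tgfb3 and Tgfbr3, overlap a predicted gene in GENCODE M21, and none of these predicted genes has a row in the files. How the counting used strand is not given in the sources used here, although the kit marks it.

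The activin branch was followed beyond Inhba, because its genes feed the same Smads. Of the 6 genes Inha, Inhbb, Fst, Fstl3, Gdf11 and Mstn, 5 passed the filter on low values, and 2 of these were higher and 0 lower, against 5.33% and 3.57% of all genes, with a median log2 ratio of 0.32. A list of 5 genes is too short to set apart from the others by its count. Fst, which encodes follistatin, the secreted protein that binds activins and keeps them from their receptors, had 52.5 FPKM with HBS and 135.7 FPKM with PC-NVs. Its FPKM ratio was 2.58 with an interval of 2.45 to 2.73. Inhbb, the beta B subunit, had 21.6 and 34.6 FPKM, an FPKM ratio of 1.61 with an interval of 1.49 to 1.73. Inhba and Inhbb together went from 48.9 to 77.8 FPKM, and their own proportion was close in the libraries, at 1.27 and 1.25. Because Fst differed by more than Inhba, the level of Inhba relative to Fst was 0.520 with HBS and 0.318 with PC-NVs. Mstn was listed at 0 in both.

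Among the genes that hold ligands latent or release them, 1 gene was past the limit. Of 16 genes, 15 passed the filter, 1 was higher (6.67%, against 5.33% of all genes) and 0 were lower (against 3.57%), shares near those of all genes, and their median log2 ratio was 0.12. The higher one was Itgb8, the integrin subunit that with Itgav activates latent TGF-beta, with 1.58 FPKM with HBS and 4.12 FPKM with PC-NVs. Its log2 ratio was 0.99, and its FPKM ratio was 2.62 with an interval of 2.19 to 3.15, at a low level of about 176 and 403 fragments. Itgb1, the integrin subunit with the highest level on the list, had 214 and 233 FPKM. Lrrc32 (GARP), which anchors latent TGF-beta at the cell surface, was at the low end of the list with a log2 ratio of -0.53.

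The other receptors and the Smads were also close to the shares of all genes, 5.33% higher and 3.57% lower, which for lists of this size amount to about a gene or none. Of 12 other receptor and co-receptor genes of the family, 9 passed the filter and 0 were higher or lower, with log2 ratios from -0.52 to 0.20. Acvr1, a type I receptor with the highest level on that list, had 36.3 and 38.4 FPKM. Of 17 Smad genes and their modulators, all passed the filter, 1 was higher (5.88%) and 0 were lower, with a median log2 ratio of 0.08. Smad3 had the highest level there, 55.0 and 58.4 FPKM. The higher one was Tgif1, a co-repressor that Smad2 and Smad3 recruit, with 33.6 FPKM with HBS and 54.8 FPKM with PC-NVs, an FPKM ratio of 1.63 with an interval of 1.48 to 1.79.

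Genes commonly used as TGF-beta targets differed in both directions. Of 30 target genes, 27 passed the filter, 5 were higher (18.5%, against 5.33% of all genes), 5 were lower (18.5%, against 3.57%) and 17 passed in neither direction. Their median log2 ratio was -0.12. The list is not apart from the others, since 5 of its genes, Tgif1 among them, are also on another pathway list and 5 are also cell type markers. It was also written with earlier results of these data known, so its shares are not read as a departure from the other genes.

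The 5 lower targets were Acta2, Ctgf, Tagln, Cdkn2b and Col1a2. Acta2, which encodes smooth muscle alpha-actin, had 27.6 FPKM with HBS and 8.02 FPKM with PC-NVs, 3.44-fold lower with a log2 ratio of -1.67. Ctgf, connective tissue growth factor (Ccn2 in GENCODE M21), had 13.8 and 4.75 FPKM, a log2 ratio of -1.37. Tagln (SM22-alpha) had 17.3 and 7.34 FPKM, a log2 ratio of -1.13. These genes of contraction and matrix had the lowest log2 ratios of the target list. Cdkn2b, an inhibitor of cyclin-dependent kinases, had 64.3 and 36.0 FPKM, and Col1a2, a chain of type I collagen, had 312 and 198 FPKM. The intervals of all 5 FPKM ratios lay below 1, the highest upper bound being 0.651 for Col1a2.

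The 5 higher targets were Timp1, Junb, Angptl4, Tgif1 and Lox. Timp1, an inhibitor of matrix metalloproteases, had 619 FPKM with HBS and 1398 FPKM with PC-NVs, an FPKM ratio of 2.26 with an interval of 2.20 to 2.32. Junb, an AP-1 transcription factor, had 64.6 and 114.9 FPKM. Angptl4, a secreted inhibitor of lipoprotein lipase, had 63.1 and 110.6 FPKM, and Lox, which crosslinks collagen and elastin, had 56.5 and 91.3 FPKM. Cdkn1a, an inhibitor of cyclin-dependent kinases and another much used target, differed less, with 349 and 355 FPKM. Fn1, the target with the highest mean log2 level over both libraries and second to Timp1 with PC-NVs, had 1344 and 964 FPKM, a log2 ratio of -0.48.

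**Figure D5:**
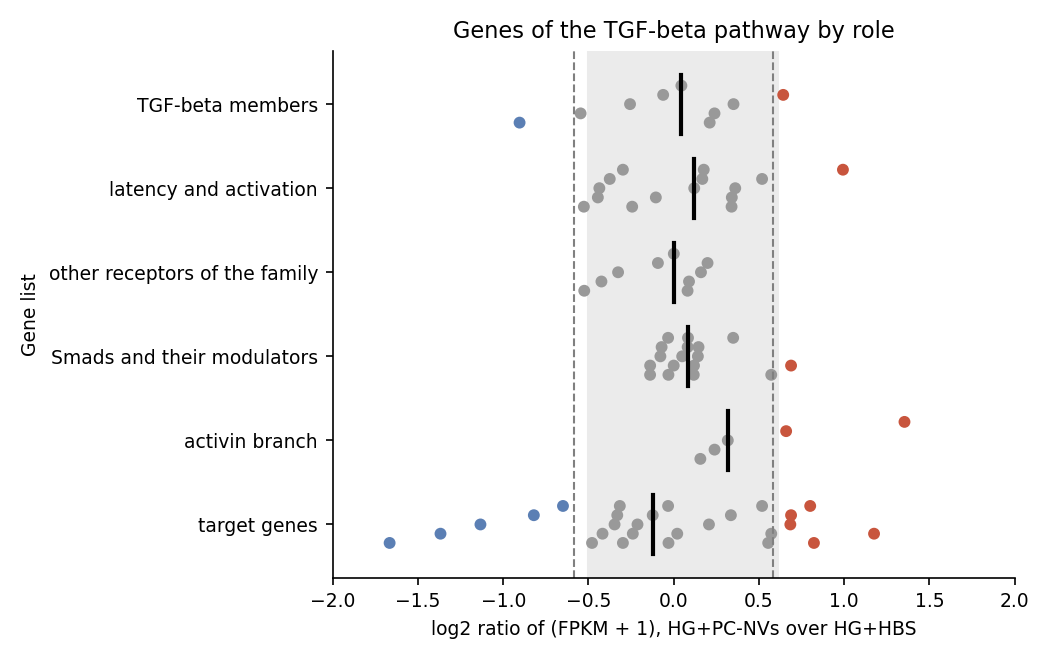
Log2 ratio of (FPKM + 1), HG+PC-NVs over HG+HBS, for each gene past the filter on low values, by role in the pathway; red points are higher and blue points lower past the dashed 1.5-fold lines, black bars are list medians, and the grey band holds the central 90% of all 11785 genes, from -0.50 to 0.61. Points beyond the lines are most numerous among the target genes, which are also the longest list, with 5 on each side of 27. In the activin branch 2 of 5 are red. Of all genes, 5.33% were higher and 3.57% lower.

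Cell type markers moved beside these targets. The counts of these short lists stand beside 5.33% of all genes higher and 3.57% lower, and are not read as departures from them. Acta2, Tagln and Cnn1 are also smooth muscle markers, and that list of 6 summed to 72.04 FPKM with HBS and 37.0 FPKM with PC-NVs, with 2 of the 3 genes past the filter lower and Myh11 near 0 in both libraries, at 0.0108 and 0.0122 FPKM. Of 8 fibroblast and mesenchymal markers, 1 was lower (Col1a2) and 1 higher, Dcn, whose product decorin binds TGF-beta, with 623 and 1283 FPKM. Of 5 pericyte markers past the filter, Rgs5 and Kcnj8 were higher and Cspg4 lower, the list of 6 summing to 35.5 and 45.8 FPKM, with Higd1b listed at 0 in both. Of 7 myeloid markers, Cd14 (36.6 and 252 FPKM) and Adgre1 (7.44 and 42.5 FPKM) were higher, 2 of 7 against 5.33% of all genes, and 5 passed in neither direction. Lyz2, Cd68 and Csf1r had lower values with PC-NVs, at 212 and 193, 36.2 and 26.3, and 8.39 and 6.20 FPKM. Ptprc and Itgam had slightly higher values, at 1.44 and 1.67 and at 1.56 and 2.02 FPKM. The sum of the list, 303 and 523 FPKM, was larger mainly through Cd14 and Adgre1. Of the 4 endothelial markers past the filter, 0 were higher or lower. The part of these markers in the values of the TGF-beta genes was not tested.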

How the data were processed

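RNA of 2 MCEC cultures was sequenced, 1 library each (HG+HBS, HG+PC-NVs). Libraries were made with a stranded kit after poly(A) selection and read as paired ends. Reads were trimmed, aligned to mm10 with TopHat and counted with BEDTools, FPKM were computed with Cufflinks, and values were normalized with edgeR in R. Tool versions and the annotation are not given in the sources used here. The authors deposited log2 values, taken here from their range as log2(normalized FPKM + 1), for 33299 rows and 23183 symbols per library.

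The values were used as deposited, since the paper describes them as normalized, and the rows of a symbol were summed as FPKM. The paper names quantile normalization, which would leave both libraries with the same sorted values. The deposited libraries did not have this, as their sorted log2 values differed by up to 0.924. Their summed FPKM were 521666 with HBS and 580717 with PC-NVs. The reason for this difference from the stated processing was not tested. Quantile normalization of the deposited values was an alternative, as were other scalings, a smaller pseudocount, other filters, the highest row of a symbol and a 2-fold limit. Differences were counted past 1.5-fold among genes with a mean log2 of at least 1, with a pseudocount of 1. All 9 TGF-beta genes are named, and of each pathway list the genes past the limit (up to 8 in each direction) and the one with the highest level. Lrrc32, Mstn and Cdkn1a were named after their values were seen. The genes and lists were chosen with earlier results of these data known. No gene was named for a pattern like that of a TGF-beta gene, since 2 libraries give a single ratio.

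To estimate depth, low FPKM values were multiplied by transcript length in kb, and the commonest product was taken as 1 fragment. This takes the deposited values as FPKM without later rescaling. It was found over 1365 genes with HBS and 1325 with PC-NVs that have a single annotated transcript over 1500 nt and lie above 0.001 FPKM. Fragments per gene used the longest protein-coding transcript of GENCODE M21 (GRCm38, the assembly of mm10), which held 95.5% of the symbols, and are approximate. Intervals are exact (Clopper-Pearson) at 95%, and cover counting error only. The calculations were tested on simulated data. Calculations used scipy 1.17.1, pandas 2.3.3 and numpy 2.4.6 in Python 3.11.15, and plots matplotlib 3.10.9.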

Additional observations from a re-analysis of the deposited data

How the results depend on the processing

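Of 45 alternative log2 ratios of the 9 TGF-beta genes, 43 stayed within the counting interval of the value given above. The exceptions were Tgfbr3 after quantile normalization (0.28) and Tgfbr2 with its highest row in place of the sum (-0.44, from 41.2 to 30.1 FPKM). Of the 9 genes, only Tgfbr2 has 2 rows, so the highest row could not change the others. Median centring took the same small median of all genes, -0.01, from every ratio. Agreement under these settings was thus largely fixed in advance. Across the settings the log2 ratio ran from -0.94 to -0.89 for Tgfb3, from 0.60 to 0.66 for Inhba and from -0.58 to -0.54 for Tgfbi, and that of Tgfb1 changed sign, from -0.03 to 0.05.

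Of 112 alternative counts and shares, 97 were within 1.5 times the value given above. With a 2-fold limit, 0 of the 9 genes were higher and 0 lower, 0 latency genes and 0 Smads or modulators were higher, 1 activin branch gene (Fst) and 1 target were higher and 3 targets were lower, against 2.38% and 0.798% of all genes. With a pseudocount of 0.1, 1 latency gene and 1 other receptor were lower, 2 Smads or modulators were higher and 5.80% of all genes were lower. With a mean log2 of at least 3, 0 latency genes were higher, since Itgb8 fell under the filter. With the highest row, 2 Smads or modulators were higher. The cause of the other changes was not tested.

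No paired analysis was possible because each condition has a single library, which also means that leaving out a replicate was not run. Each of the 9 genes rests on at least about 410 fragments in a library, and counting leaves the side of the 1.5-fold limit open for Inhba and Tgfbi, whose intervals reach it. A difference between cultures unrelated to PC-NVs cannot be told apart from their effect.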
